A study of Mus musculus with 9 samples.

Results

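Chac1, Tars, Slc38a2 and Eif4ebp1, genes of amino acid stress and translation control, were described in alveolar bone after tooth extraction. They were chosen by gene name as known targets of the transcription factor ATF4, and they are 4 of the 98 genes in the deposited table. That table holds only genes selected by the authors for a difference between the Spon. Healing and Allograft groups at an adjusted p under 0.1, so the difference between the groups chose these genes and is given below as a description, with no test. What the authors' selection did not use is the order of the libraries inside each group and the promoter sequences. The genes were chosen as known ATF4 targets, however, so a match to an ATF4 element in their promoters is not independent of that choice.

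All mice were male C57BL/6, 8 weeks old, and had a maxillary molar extracted. In Spon. Healing (n = 4) the socket healed without a graft, and in Allograft (n = 5) it received decellularized, pulverized femur and tibia bone of C57BL/6 mice with saline. The maxillae were collected 2 weeks later, and RNA of whole bone lysate was read by CEL-Seq2, which sequences the 3′ ends of polyadenylated transcripts. The labels state that 3 biological replicates were used, while 4 and 5 libraries are deposited. No carrier-only Spon. Healing group was analysed here, so graft and saline cannot be told apart in this comparison.

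ATF4 is the main transcription factor of the integrated stress response. Amino acid shortage, ER stress and other insults lead to phosphorylation of the initiation factor eIF2, which lowers general protein synthesis while ATF4 mRNA is translated more, and ATF4 then raises genes of amino acid uptake, tRNA charging and redox balance. Chac1 encodes a cytosolic enzyme that degrades glutathione. Tars encodes the cytosolic threonyl-tRNA synthetase, which loads threonine onto its tRNA. Slc38a2 encodes SNAT2, a sodium-coupled carrier of small neutral amino acids at the plasma membrane. Eif4ebp1 encodes 4E-BP1, which binds the cap-binding protein eIF4E and restrains cap-dependent translation until mTORC1 phosphorylates it.

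Sequences upstream of the genes are shown because ATF4 with a C/EBP partner binds a composite element, here searched as TGATGNAA on both strands. RefSeq promoters of build GRCm38.p6 were matched for 3 of the 4 genes (Chac1, Tars and Slc38a2). Each sequence runs 5′ to 3′ on the gene's strand from 250 to 8 bases before the transcript start of its RefSeq promoter, and capitals mark the match. That start differs from the annotated gene boundary given further below. The Chac1 stretch therefore ends inside the gene span printed there.
Chac1: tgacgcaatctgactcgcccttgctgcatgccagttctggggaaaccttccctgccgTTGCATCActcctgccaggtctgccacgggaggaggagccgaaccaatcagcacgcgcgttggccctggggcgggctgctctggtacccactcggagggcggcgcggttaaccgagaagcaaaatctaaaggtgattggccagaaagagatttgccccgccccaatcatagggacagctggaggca
Tars: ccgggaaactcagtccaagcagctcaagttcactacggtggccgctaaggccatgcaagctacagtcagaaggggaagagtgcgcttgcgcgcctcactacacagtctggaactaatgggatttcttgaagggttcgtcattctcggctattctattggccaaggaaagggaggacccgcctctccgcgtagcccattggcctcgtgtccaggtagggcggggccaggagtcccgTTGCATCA
Slc38a2: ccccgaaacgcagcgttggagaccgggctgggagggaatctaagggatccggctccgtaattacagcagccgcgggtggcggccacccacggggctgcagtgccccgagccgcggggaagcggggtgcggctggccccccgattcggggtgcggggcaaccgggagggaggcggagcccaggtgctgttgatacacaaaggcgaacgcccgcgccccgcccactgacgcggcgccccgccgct

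The Chac1 stretch lies at chr2:119350992-119351234 on the plus strand, the Tars stretch at chr15:11399666-11399908 on the minus strand and the Slc38a2 stretch at chr15:96699736-96699978 on the minus strand. In Chac1 the match stood 193 to 186 bases before the start (chr2:119351049-119351056), and in Tars it stood 15 to 8 bases before the start (chr15:11399666-11399673). Both matches held the full letters TGATGCAA on the strand opposite to the gene. The search covered whole promoter sequences, from 250 bases before to 50 bases after the start. This is more than the stretches shown, which end at the last base of the Tars match. In this window the letters TGATGNAA were found in 1304 of 32851 promoters (3.97%) and, of the 66 listed genes with a promoter sequence, in Chac1, Sfpq and Tars. The letters TGATGCAA were found in 294 promoters (0.895%) and, among those 66 genes, in Chac1 and Tars alone. The Chac1 and Tars matches sit in a shared run of 11 letters, CCGTTGCATCA, which was noticed after looking at the sequences and occurs in promoters of 3 genes in all. The Slc38a2 stretch held no match, and its GC content was 73.3% against 60.9% in Chac1 and 57.6% in Tars. In human cells the amino acid response element of SLC38A2 is known to lie in an intron, outside such a window. A match is a description of letters and not a measurement of binding.

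The genes lie on 3 chromosomes, and no other annotated gene overlapped any of them in the GENCODE M21 annotation of GRCm38. Chac1 (ENSMUSG00000027313) spans chr2:119351229-119354381 on the plus strand with 3 exons. Tars (ENSMUSG00000022241) spans chr15:11382301-11399665 on the minus strand with 19 exons in its principal transcript. Slc38a2 (ENSMUSG00000022462) spans chr15:96687392-96699730 on the minus strand with 16 exons. Eif4ebp1 (ENSMUSG00000031490) spans chr8:27260329-27276674 on the plus strand with 3 exons.

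Each gene is given as its raw count and as its normalized count, in which the authors corrected every library by a single size factor. The size factors were 0.577 to 1.44 among Spon. Healing libraries and 0.653 to 2.20 among Allograft libraries. Summed over the listed genes, a Spon. Healing library held 60516 to 230063 counts and an Allograft library 130890 to 443678; sequencing depth itself is unknown here, as most genes are outside the table. None of the 54 marker genes fixed for 9 cell types is among the listed genes, so the labelled tissue was not checked against its markers. In whole bone RNA, more cells of a type and more RNA per cell cannot be told apart.

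All 4 genes had a higher mean in Allograft, as had 67.0% of the 97 listed genes that averaged 3 counts or more (65 genes). All Allograft libraries lay above all Spon. Healing libraries in 3 of the 4 genes (Chac1, Tars and Slc38a2), against 53.6% of those 97 genes. Both counts rest on the contrast that chose the genes. The separation also depends on the scaling: with TMM factors estimated from the listed genes, all 4 genes had overlapping groups, and with raw counts that were not scaled 1 of the 4 had no overlap. The share over the 97 genes was not computed under those scalings, so the change is not shown to be particular to these 4 genes.

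**Figure D1:**
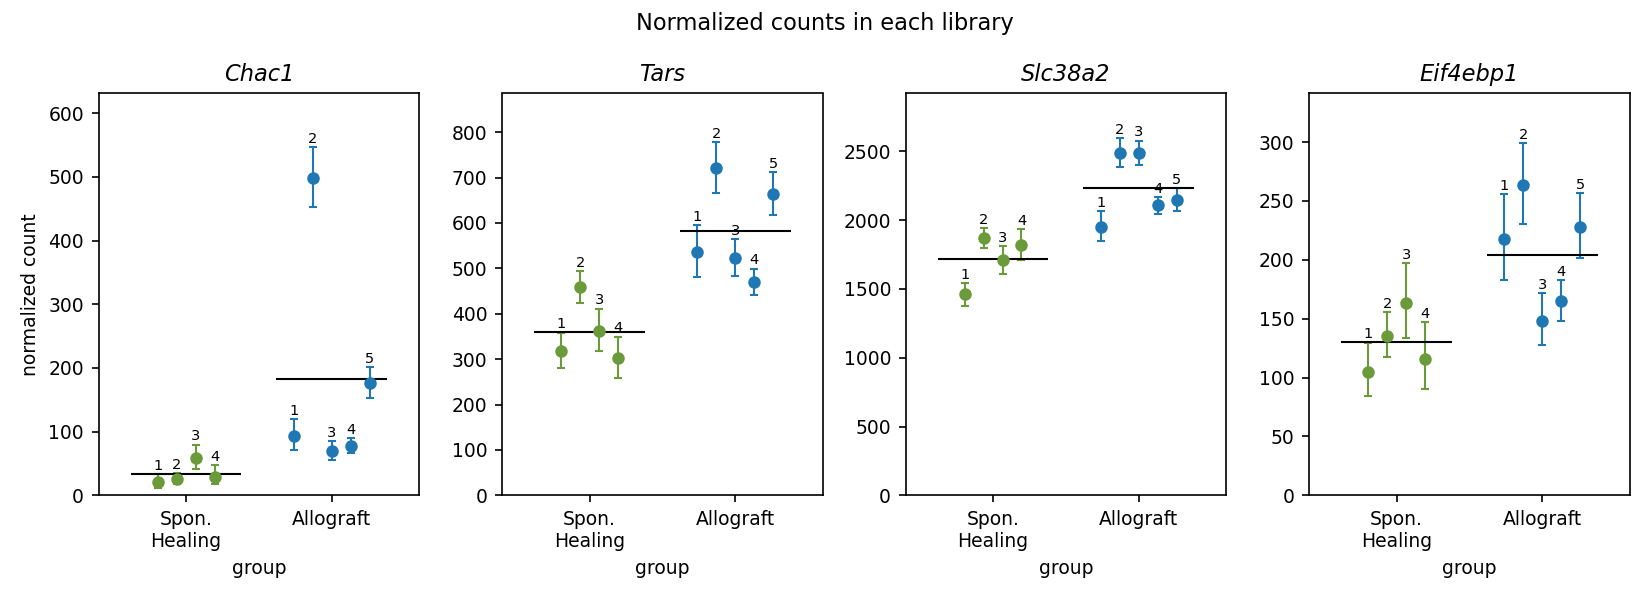
Normalized counts (y axis, linear from 0) of Chac1, Tars, Slc38a2 and Eif4ebp1 in the 4 Spon. Healing and 5 Allograft libraries (x axis, numbered by replicate); bars are exact Poisson 95% intervals of the counts, which cover counting error only, and lines are group means. Chac1 stands at 498 in Allograft replicate 2 with the other Allograft libraries between 69.3 and 176, while the highest and lowest Allograft libraries of the other 3 genes lie much closer together.

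Chac1 was the most variable of the 4 genes and had the largest difference between the groups. Its raw counts were 17, 36, 38 and 17 in Spon. Healing replicates 1 to 4 and 61, 437, 85, 170 and 207 in Allograft replicates 1 to 5. After scaling these became 20.5, 25.003, 58.1 and 29.5 normalized counts in Spon. Healing and 93.3, 498, 69.3, 77.2 and 176 in Allograft. Allograft replicate 2 stood far above the rest, replicate 5 came next, and the lowest Allograft library, replicate 3, lay above Spon. Healing replicate 3, the highest of its group, with overlapping counting intervals of 55.4 to 85.7 and 41.1 to 79.7.

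The mean of Chac1 was 33.3 ± 16.9 normalized counts in Spon. Healing (SD, n = 4) and 183 ± 181 in Allograft (SD, n = 5), a ratio of 5.49. The fitted log2 fold change was 2.48 with a standard error of 0.71. Without Allograft replicate 2 the Allograft mean was 104 ± 49.0 (SD, n = 4), the ratio of means 3.12 and the fitted log2 fold change 1.67. The coefficient of variation was 50.9% in Spon. Healing, where counting alone gives 20.3%, and 99.2% in Allograft, where counting alone gives 7.55%. Over the 97 genes the median coefficient of variation was 16.2% and 16.1% in the respective groups.

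The Chac1 level of Allograft replicate 2 was 5.84 times the median of the other 4 Allograft libraries (85.3 normalized counts). Its exact Poisson 95% interval, 452 to 547, did not meet that of replicate 5, 153 to 202. None of the other 96 genes had as high a ratio in that library: Palmd, which encodes palmdelphin, came next with 2.04, the median over the 97 genes was 1.06 and the quartiles were 0.903 and 1.24. The same ratio was 1.36 for Tars, 1.17 for Slc38a2 and 1.38 for Eif4ebp1.

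Tars was higher in Allograft by a smaller and more even step. Its raw counts were 263, 660, 237 and 174 in Spon. Healing and 350, 632, 640, 1035 and 780 in Allograft. The normalized counts were 318, 458, 362 and 302 in Spon. Healing and 536, 720, 522, 470 and 663 in Allograft. Replicate 2 was the highest library of each group, and the groups were separated by a narrow gap: the interval of Spon. Healing replicate 2, 424 to 495, overlapped that of Allograft replicate 4, 442 to 499. The group means were 360 ± 70.4 (SD, n = 4) and 582 ± 105 (SD, n = 5), a ratio of 1.62. The fitted log2 fold change was 0.69 with a standard error of 0.17, and 0.37 with TMM factors.

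Slc38a2 had the smallest difference between the groups of the 4 genes. Its raw counts were 1208, 2688, 1119 and 1050 in Spon. Healing and 1276, 2182, 3050, 4641 and 2524 in Allograft. The normalized counts were 1460, 1867, 1710 and 1820 in Spon. Healing and 1953, 2487, 2487, 2107 and 2145 in Allograft. Allograft replicates 2 and 3 shared the top of the group, and the lowest Allograft library, replicate 1, lay close above Spon. Healing replicate 2, with overlapping counting intervals of 1847 to 2063 and 1797 to 1939. The means were 1714 ± 182 (SD, n = 4) and 2236 ± 240 (SD, n = 5), a ratio of 1.30. The fitted log2 fold change was 0.38 with a standard error of 0.12, and it was 0.069 with TMM factors.

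Eif4ebp1 was the gene whose groups overlapped. Its raw counts were 87, 195, 107 and 67 in Spon. Healing and 142, 231, 182, 363 and 268 in Allograft. The normalized counts were 105, 135, 164 and 116 in Spon. Healing and 217, 263, 148, 165 and 228 in Allograft. Allograft replicate 3 lay below Spon. Healing replicate 3, and Allograft replicates 1, 2 and 5 lay above all Spon. Healing libraries by a wider margin than replicate 4. The means were 130 ± 25.6 (SD, n = 4) and 204 ± 47.1 (SD, n = 5), a ratio of 1.57. The fitted log2 fold change was 0.65 with a standard error of 0.22, and 0.32 with TMM factors.

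**Figure D2:**
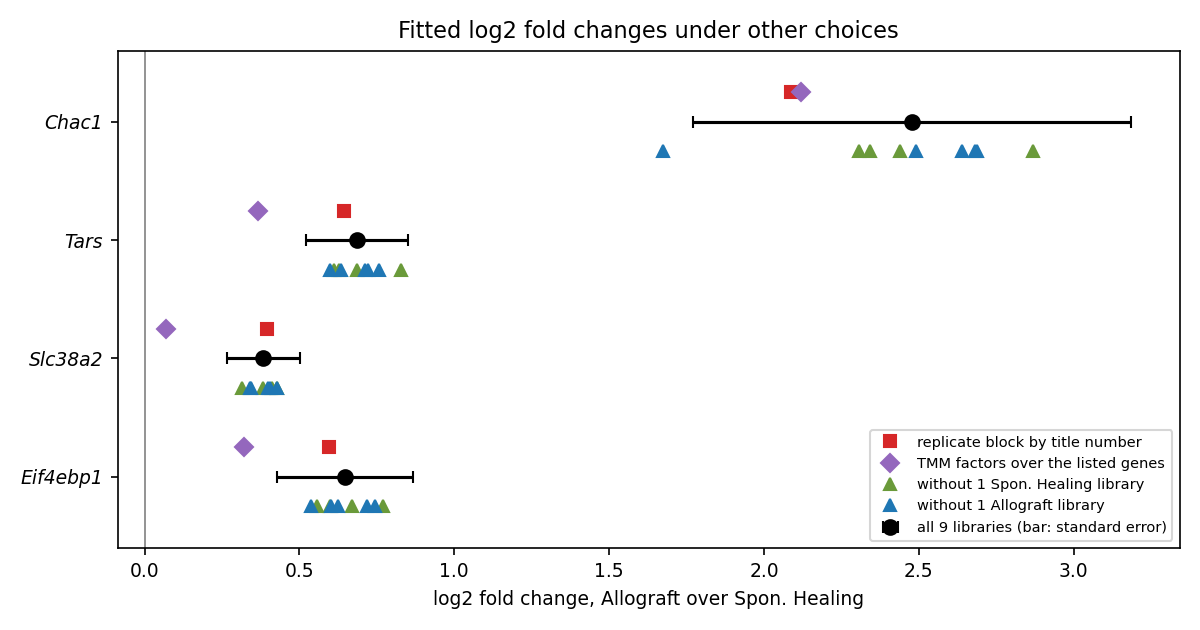
Fitted log2 fold change of Allograft over Spon. Healing (x axis) for each gene (y axis): the black points use all 9 libraries with the standard error as bar, triangles leave out 1 library, squares add the replicate number of the sample titles as a block and diamonds use TMM factors from the listed genes. All plotted values, which are of genes chosen for this contrast, lie above 0, from 0.069 for Slc38a2 with TMM factors to 2.87 for Chac1 without Spon. Healing replicate 3.

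The median ratio of means over the 65 genes higher in Allograft was 1.48, near those of Tars and Eif4ebp1, while Chac1 ranked 2 of 97. The difference between the log2 fold changes with TMM factors and with the authors' size factors had a median of -0.31 over all listed genes, so TMM factors lower all 4 genes by about that amount. Relative to that shift the order of the 4 genes was the same under both scalings, with Chac1 first (2.12 with TMM factors), then Tars, Eif4ebp1 and Slc38a2.

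Whether the library highest for Chac1 was also high for the others was read inside each group. In Allograft this library was replicate 2, so the place of Chac1 there was fixed by the choice of library. Among the other genes, replicate 2 was the highest Allograft library for Tars and Eif4ebp1 but not for Slc38a2, against 30.9% of the 97 genes. For Slc38a2 it came next after replicate 3 by less than 1 normalized count (2486.85 against 2487.26), well within counting error. Replicates 2 and 5, the highest and next highest Allograft libraries in Chac1, held the same places in Tars and Eif4ebp1 but not in Slc38a2, against 19.6% of the 97 genes. The full Allograft order was replicate 2, 5, 1, 4, 3 in both Chac1 and Eif4ebp1 and replicate 2, 5, 1, 3, 4 in Tars, whereas Slc38a2 ran 3, 2, 5, 4, 1.

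In Spon. Healing the highest Chac1 library was replicate 3. Among the other genes Eif4ebp1 alone peaked there too, as did 19.6% of the 97 genes. Tars and Slc38a2 were highest in Spon. Healing replicate 2 instead. Replicate 3 was the next highest library for Tars and came after replicates 2 and 4 for Slc38a2. Spon. Healing replicate 1 was the lowest library for Chac1, Slc38a2 and Eif4ebp1, and replicate 4 was the lowest for Tars. In Chac1, Spon. Healing replicate 3 and its next neighbour, replicate 4, had overlapping counting intervals, as had replicates 4, 2 and 1 and Allograft replicates 1, 4 and 3.

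**Figure D3:**
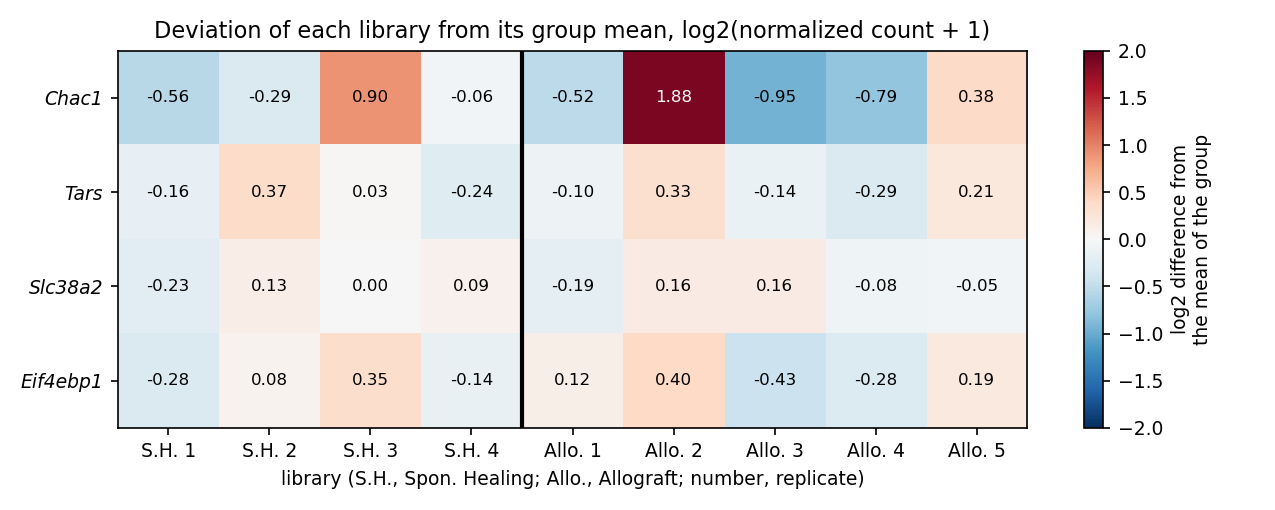
Deviation of each library (x axis) from the mean of its group on the scale of log2(normalized count + 1), for the 4 genes (y axis), with red above and blue below the mean. Allograft replicate 2 is above its group mean in all 4 genes, by 1.88 in Chac1, 0.33 in Tars, 0.16 in Slc38a2 and 0.40 in Eif4ebp1.

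The likeness of 2 genes was counted as the number of library pairs, both of the same group, in which both genes had the same higher library: 6 pairs in Spon. Healing and 10 in Allograft, 16 in all. Eif4ebp1 was ordered as Chac1 in 15 of the 16 pairs, 5 in Spon. Healing and all 10 in Allograft. The counting intervals of Eif4ebp1 overlapped among Allograft replicates 1, 2 and 5 and between Allograft replicates 3 and 4. In Spon. Healing they overlapped in all pairs except replicates 1 and 3, so the order in these pairs is open to counting error. Tars was ordered as Chac1 in 12 pairs, 3 in Spon. Healing and 9 in Allograft. The counting intervals of Tars overlapped between Allograft replicates 2 and 5 and among Allograft replicates 1, 3 and 4. They also overlapped among Spon. Healing replicates 1, 3 and 4, so the order of Tars in these pairs is open to counting error too. Slc38a2 was ordered as Chac1 in 8 pairs, 3 in Spon. Healing and 5 in Allograft, no more than the median of 9 over the 96 other genes.

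Against that background, 3.12% of the 96 genes were ordered as Chac1 in at least as many pairs as Eif4ebp1 (3 genes, Eif4ebp1 included), 17.7% in at least as many as Tars and 61.5% in at least as many as Slc38a2. Tars and Eif4ebp1 were ordered alike in 13 pairs, Tars and Slc38a2 in 10, and Slc38a2 and Eif4ebp1 in 9. Without Allograft replicate 2, Eif4ebp1 was ordered as Chac1 in 11 of 12 pairs, a count reached by 3.12% of genes, while Tars was ordered as Chac1 in 8 of 12, reached by 32.3%. Pairs that share a library are not independent, and the libraries share 1 size factor for all genes. Chac1 was higher in the library with the lower size factor in 11 of the 16 pairs, Eif4ebp1 in 10, Tars in 9 and Slc38a2 in 7, with a median of 8 over the 97 genes.

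How many genes were as much like Chac1 as Tars was depended on the scaling, more than for Eif4ebp1. With raw counts that were not scaled, Eif4ebp1 was ordered as Chac1 in 11 of the 16 pairs, a count reached by 5.21% of the 96 genes, and Tars in 9, reached by 45.8%. With TMM factors Eif4ebp1 was ordered as Chac1 in 15 pairs, reached by 2.08%, and Tars in 11, reached by 21.9%. Slc38a2 was ordered as Chac1 in 8 pairs under both, where the median over the 96 genes was also 8.

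**Figure D4:**
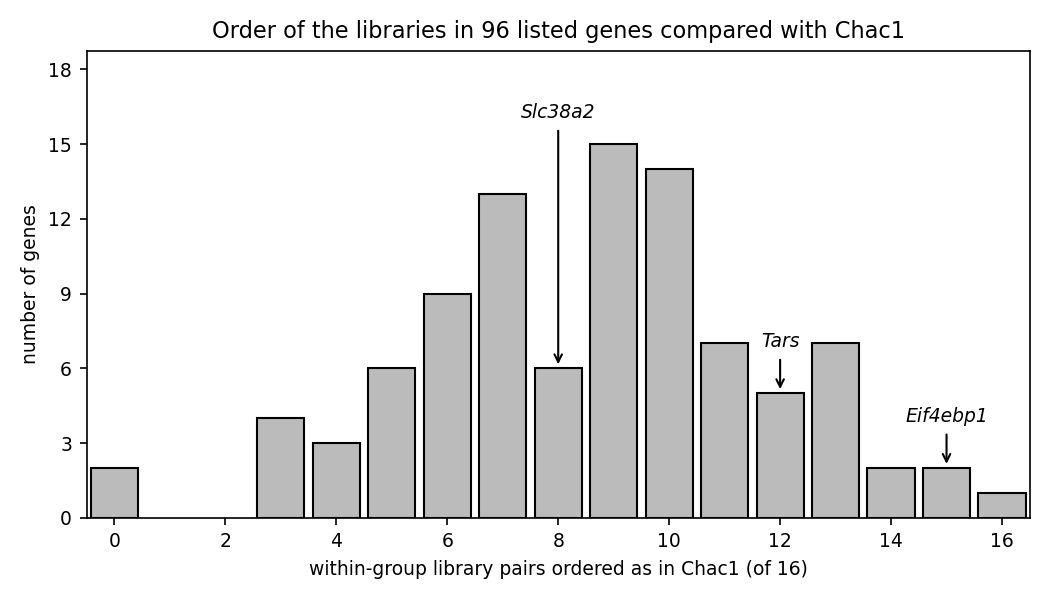
Number of genes (y axis) by the number of within-group library pairs, of 16, that they order as Chac1 does (x axis), for the 96 other listed genes that averaged 3 counts or more. Slc38a2 stands at 8, near the median of 9, Tars at 12 and Eif4ebp1 at 15.

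By the same count, the genes most like each of the 4 were named. For Chac1 they were Map3k14 with 16 of 16 pairs, Eif4ebp1 with 15 and Atp2a2, the calcium pump of the ER, with 15. Map3k14, a kinase of the non-canonical NF-κB pathway, was lower in Allograft, with a mean of 15.0 ± 4.78 normalized counts (SD, n = 5) against 39.8 ± 10.4 (SD, n = 4). Its raw counts of 9 to 26 in Allograft are low, so that its order there is open to counting error. For Tars they were Lman1, Palmd and Pdia6, each with 15 pairs. For Slc38a2 they were Atg3 with 14, and Sfpq and Rabep2 with 13. For Eif4ebp1 they were Dnajc3, Map3k14 and Uso1, each with 15.

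Ratios of raw counts within a library do not depend on the size factors, but their difference between the groups is that of the genes' fold changes and so rests on the contrast that chose the genes. Chac1 per 100 Tars counts was 6.46, 5.45, 16.03 and 9.77 in Spon. Healing and 17.4, 69.1, 13.3, 16.4 and 26.5 in Allograft. The groups overlapped, since Spon. Healing replicate 3 lay above Allograft replicate 3, and Allograft replicate 2 again stood apart. Chac1 per 100 Eif4ebp1 counts was 18.5 to 35.5 in the Spon. Healing libraries and 43.0 to 189 in the Allograft libraries, with no overlap. Chac1 per 100 Slc38a2 counts was 1.34 to 3.396 and 2.79 to 20.03 in the respective groups, which overlapped.

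Tars and Eif4ebp1, whose ratios of means were alike, had overlapping proportions in the groups. Eif4ebp1 per 100 Tars counts was 33.1, 29.5, 45.1 and 38.5 in Spon. Healing (36.6 ± 6.80, SD, n = 4) and 40.6, 36.6, 28.4, 35.1 and 34.4 in Allograft (35.0 ± 4.39, SD, n = 5), a difference smaller than the spread in either group. Tars per 100 Slc38a2 counts was 21.8, 24.6, 21.2 and 16.6 in Spon. Healing (21.02 ± 3.31, SD, n = 4) and 27.4, 29.0, 20.98, 22.3 and 30.9 in Allograft (26.1 ± 4.29, SD, n = 5). In that ratio Allograft replicates 1, 2 and 5 lay above all Spon. Healing libraries and replicates 3 and 4 lay among them.

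**Figure D5:**
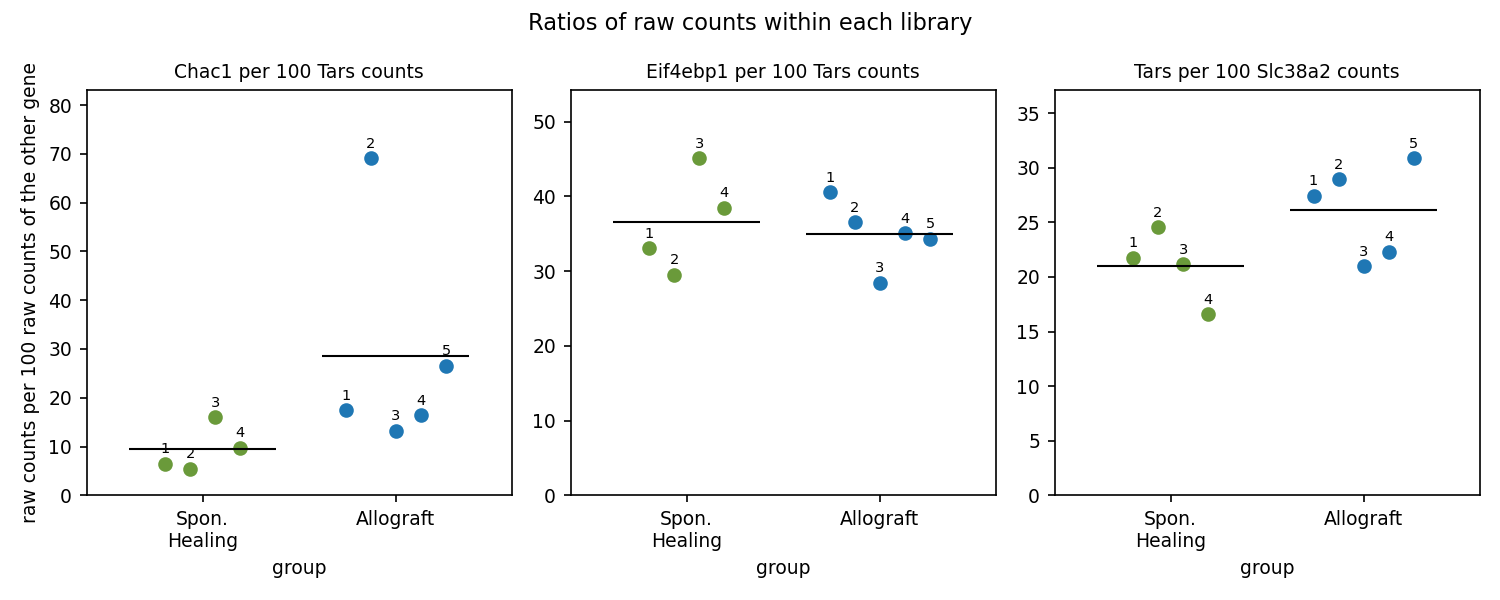
Ratios of raw counts within each library (y axes, counts per 100 counts of the second gene, linear from 0) in the 4 Spon. Healing and 5 Allograft libraries (x axis, numbered by replicate), with lines at the group means. Chac1 per 100 Tars reaches 69.1 in Allograft replicate 2, while Eif4ebp1 per 100 Tars has means of 36.6 and 35.0.

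Other genes of the same pathways were looked up among the 98 listed genes. Of 51 ATF4 targets of the amino acid response, the table lists Chac1, Tars, Slc38a2 and Eif4ebp1 alone, which were picked from it as such targets. All 4 were higher in Allograft, as were 67.0% of the 97 genes, and genes outside the table were not analysed here. The share of all measured genes that are listed is not known here, so this count and those that follow do not show over-representation. Of 21 cytosolic aminoacyl-tRNA synthetases the table lists Tars, of 29 plasma membrane amino acid transporters Slc38a2, and of 15 genes of glutathione handling Chac1. Of 17 mitochondrial synthetases it lists Mars2, the mitochondrial methionyl-tRNA synthetase, which was lower in Allograft: 44.8 ± 21.1 normalized counts in Spon. Healing (SD, n = 4) and 17.9 ± 8.99 in Allograft (SD, n = 5), with overlapping groups. Of 41 genes of translation initiation it lists Eif4ebp1 and Eif1, a factor of start codon selection, which had 1467.5 ± 72.5 in Spon. Healing (SD, n = 4) and 1920 ± 176 in Allograft (SD, n = 5) with no overlap.

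Genes of the unfolded protein response were the nearest group for comparison, since ER stress is another input to ATF4. The table lists 7 of 32 ER chaperone and unfolded protein response genes, all higher in Allograft, and 4 of 17 genes of the cytosolic HSP70 machine, all higher too, against 67.0% of the 97 genes, all of them chosen for a group difference. The share of all measured genes that the table lists is not known here, so the counts of listed genes do not show whether either set is over-represented. The fitted log2 fold changes of the 7 ER genes ran from 0.35 in Pdia6, a protein disulfide isomerase, to 0.89 in Hspa5, the ER chaperone BiP, with a median of 0.64. Those of the 4 HSP70 genes ran from 0.38 in St13 to 1.15 in Hsph1, both cochaperones, with a median of 0.48, so the lists overlapped and Chac1, at 2.48, lay above both. The 7 ER genes were ordered as Chac1 in 10 to 14 of the 16 pairs, with a median of 11, and the 4 HSP70 genes in 7 to 13, with a median of 9. In Allograft replicate 2 the ratio to the median of the other Allograft libraries was 1.04 to 1.51 in the ER genes and 0.929 to 1.37 in the HSP70 genes, beside the median of 1.06 over all genes and the 5.84 of Chac1. Chac1 per 100 Hspa5 counts was 1.45, 1.07, 2.91 and 1.51 in Spon. Healing and 2.52, 11.6, 2.09, 2.51 and 5.04 in Allograft, so the groups overlapped when Chac1 was set against this chaperone.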

How the data were processed

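Maxillary bone RNA of 4 Spon. Healing and 5 Allograft libraries was sequenced by CEL-Seq2 from 2 ng of RNA. The authors trimmed reads with cutadapt (quality 10, at least 28 nt), aligned them to GRCm38 (Ensembl release 99) with TopHat and counted strand-matched reads per gene with HTSeq (mapping quality 10 or more); tool versions are not given in the sources used here, nor is collapsing of molecular identifiers. The deposited raw counts are whole numbers, and the deposited normalized signal is the raw count divided by 1 DESeq2 size factor per library. The authors' columns of mean, fold change, standard error, test statistic and p-values were not used.

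Here, raw counts of the 97 listed genes averaging 3 or more were fitted by edgeR 4.0.16 under R 4.3.3 (robust quasi-likelihood, no covariate), scaled by the authors' size factors. The standard error is the absolute log2 fold change over the square root of F. No p-value was computed for the group difference. Intervals are exact Poisson 95% intervals and cover counting error only. Libraries were numbered as in the sample titles, and columns were matched by the sample descriptions. The labels call the replicates biological.

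The genes and lists were chosen with earlier results of these data known. Named genes were the 4 genes, the 3 listed genes most like each in library order, listed genes of the 6 amino acid and translation lists, and Hspa5, Dnajc3, Dnajb9 and Hspa8. Alternatives were DESeq2 1.42.0, limma 3.58.1 (voom, or log2 of normalized counts with a pseudocount of 1), TMM factors, no scaling, other filters and prior counts, replicate blocks and each library left out. The libraries of each block without the block term, the library orders of all genes under other scalings and Dixon's gap on the log2 scale were chosen after seeing the data.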

Additional observations from a re-analysis of the deposited data

Results flagged for a closer look

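Chac1 in Allograft replicate 2, at 498 normalized counts, was far from the other Allograft libraries: its gap to the nearest of them took 0.751 of the whole range of the 5 libraries, above the critical value of 0.710 of Dixon's test. On the scale of log2(normalized count + 1), computed after seeing the data, the gap took 0.529 of the range, below that value. It was 1 of 8 groups examined (4 genes in each of 2 groups), and chance gives such a library in about 1 of 20 groups. The library was also the highest for Tars and Eif4ebp1, without being far from the others there. The cause was not tested.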

How the results depend on the processing

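All 80 alternative log2 fold changes, 20 for each gene, were above 0. They re-fit the same counts of genes chosen for this contrast, so their sign is no independent support. The fit without Allograft replicate 5 recurs among them as the libraries of the title number blocks without the block term. Of the 80, 77 moved by less than the SD of single libraries within groups. That SD was 0.98 for Chac1, so its values from 1.67 to 3.31 all counted as unmoved. The others were those with TMM factors over the listed genes, with 0.37 for Tars, 0.069 for Slc38a2 and 0.32 for Eif4ebp1; these factors assume that the listed genes do not shift as a whole, which need not hold for genes chosen for a difference. The number of genes without overlap between groups was 3 of the 4 with the authors' size factors, beside 53.6% of the 97 genes. It was 0 with TMM factors and 1 with raw counts that were not scaled. The share over the 97 genes was not computed for those scalings or with a library left out. These counts therefore show nothing particular to the 4 genes. Leaving out 1 library gave log2 fold changes of 1.67 to 2.87 for Chac1, 0.60 to 0.83 for Tars, 0.31 to 0.43 for Slc38a2 and 0.54 to 0.77 for Eif4ebp1, and 3 to 4 genes without overlap. It left 8 to 11 pairs ordered alike in Chac1 and Tars, 5 to 8 in Chac1 and Slc38a2 and 11 to 13 in Chac1 and Eif4ebp1, of the 12 or 13 pairs that remain. For Slc38a2 the share of pairs ran from 38.5% without Spon. Healing replicate 1 to 66.7% without Allograft replicate 3; the cause was not tested. The ratio of the highest Chac1 library in Allograft to the median of the others ran from 2.28, without replicate 2, to 6.45.

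With the replicate block by title number the log2 fold changes were 2.09 for Chac1, 0.64 for Tars, 0.40 for Slc38a2 and 0.60 for Eif4ebp1, and the same 8 libraries without the block gave 2.49 for Chac1 and 0.60 for Eif4ebp1. With the block by description number, over 6 libraries, they were 2.88, 0.78, 0.39 and 0.85, and the same 6 libraries without the block gave 3.31, 0.77, 0.39 and 0.87. Deviations of same-numbered libraries correlated over 97 genes at 0.012, 0.26, 0.042 and 0.11 by title number and at -0.38, -0.15 and 0.24 by description number, so the numbers were not taken to pair the samples. Of 8 libraries 4 correlated best with their own title number, and of 6 libraries 2 with their own description number. The number expected without pairing was not computed, so whether the numbers pair the samples was not tested.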
